A study of Homo sapiens with 18 samples.

Results

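The genes described here are 39 genes of mitosis and the G2/M phase of the cell cycle, listed by name as textbook members of the program. The list was drawn up with earlier results of these data known. All 39 had a probe set that names a single gene, and they are 39 of the 19775 genes measured. RNA from DU145 and CWR22Rv1, both established human prostate cancer cell lines, was hybridised to Affymetrix arrays. In each line 3 arrays came from cells transfected with a scramble siRNA, 3 from cells given an siRNA against Stat3 and 3 from cells given siRNAs against Stat5a and Stat5b, 18 arrays in all. All cells, controls included, received siRNA with Lipofectamine and were harvested 48 h later, so no untransfected or later sample enters a comparison. The labels call the arrays triplicates without saying that they came from separate cultures, so the p-values reflect only how much these arrays vary, and that variation may be technical. Both siRNA groups of a line are compared with the same scramble arrays. Levels are log2 values as deposited. A change is a difference of group means of 3 arrays on that scale, given ± its standard error from limma, a linear model fitted to every gene and all 18 arrays. A gene was called, and is said to have risen or fallen, at an adjusted p under 0.05 over all genes.

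Cells enter mitosis when CDK1 is switched on by its B-type cyclins. Aurora and polo-like kinases then build the spindle, the checkpoint holds cells until every kinetochore is attached, and the anaphase-promoting complex, a ubiquitin ligase, ends mitosis by destroying securin and cyclin B. The genes for these proteins are transcribed late in the cell cycle by the MuvB complex with B-Myb and FOXM1, which reads a promoter element called the cell cycle genes homology region, and by NF-Y at CCAAT boxes. Because they are transcribed together and late, they are widely used as a proliferation signature in tumours. In bulk RNA, a change in the share of cells that are in G2 or mitosis and a change in the transcript level of each cell cannot be told apart.

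The siRNAs lowered their targets unequally. STAT3 read between 10.82 and 10.96 on DU145 scramble arrays and between 9.19 and 9.45 with Stat3 siRNA, a fall to 32.6% of the control, and in CWR22Rv1 between 7.21 and 7.40 and then between 6.04 and 6.31, a fall to 45.7%. With Stat5a/b siRNA, STAT5B went from between 7.95 and 8.16 to between 6.61 and 6.80 in DU145 (39.1%), and from between 7.87 and 8.005 to between 6.90 and 7.17 in CWR22Rv1 (53.4%). STAT5A changed by -0.30 (adjusted p = 0.101) and -0.34 (adjusted p = 0.146) with the Stat5a/b siRNA and was not called in either line. Of the markers, the 5 epithelial genes had mean levels of 9.38 or more in DU145 and 10.1 or more in CWR22Rv1. The means of the endothelial and leukocyte genes over a line's 9 arrays were 5.48 or less, although CD14, a monocyte gene, was at 5.87 to 6.34 on the control arrays of DU145. Of the luminal genes, KLK2 and HOXB13 stood at 10.1 to 10.2 and 9.34 to 9.37 on the control arrays of CWR22Rv1, against 3.12 to 3.88 and 4.17 to 4.69 in DU145. One fibroblast gene, LUM, was at 8.02 to 8.29 on control arrays of CWR22Rv1 and 2.32 to 2.99 in DU145. Some markers moved with the siRNAs. In DU145, with the Stat3 and the Stat5a/b siRNA, 2 and 3 of the 5 epithelial genes fell, CDH1 by 0.98 ± 0.078 and by 1.18 ± 0.078, and of the 4 leukocyte genes CD14 fell, by 1.09 ± 0.147 and by 0.96 ± 0.147. In CWR22Rv1, 2 of the 4 fibroblast genes fell with Stat3 siRNA, LUM by 0.66 ± 0.178 and COL3A1 by 0.47 ± 0.121, and 0 markers were called with Stat5a/b siRNA. The part of the markers in the results was not tested. Arrays of a group correlated at 0.993 or more over all genes.

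The promoters of these genes carry the elements named above far more often than promoters in general, and 6 of them are shown because their genes were called differently with the siRNAs. RefSeq promoter windows of assembly GRCh38.p14, 250 bases before to 50 after a start site, were found for 32 members, some with several start sites, which made 39 windows; FOXM1, AURKA, TPX2, RACGAP1, UBE2C, BIRC5 and TTK had none in the table used. Both strands were searched, and matches to different motifs may share bases. The core of the cell cycle genes homology region, TTTGAA, was in 27 of the 39 windows (69.2%), against 15.2% of 35116 windows over all genes. It began within 60 bases before the start site in 15 windows (38.5%, against 2.98%). CCAAT was in 30 windows (76.9%, against 34.6%), and both motifs were in 22 (56.4%, against 5.9%). The STAT-type motif TTCNNNGAA was in 5 windows (12.8%, against 7.66%). A match is a description of letters and not a measured binding site. The 120 bases before the start site follow, 5′ to 3′ on the gene's strand, with matches on either strand in capitals, either to the core or its variant TTTAAA or to the CCAAT box.
HMMR, chr5:163460512-163460631, plus strand: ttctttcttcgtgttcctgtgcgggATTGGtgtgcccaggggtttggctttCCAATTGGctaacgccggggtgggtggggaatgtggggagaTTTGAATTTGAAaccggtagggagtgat
PRC1, chr15:90994536-90994655, minus strand: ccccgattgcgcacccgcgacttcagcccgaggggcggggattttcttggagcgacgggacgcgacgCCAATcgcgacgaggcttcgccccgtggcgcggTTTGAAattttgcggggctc
CCNB2, chr15:59105026-59105145, plus strand: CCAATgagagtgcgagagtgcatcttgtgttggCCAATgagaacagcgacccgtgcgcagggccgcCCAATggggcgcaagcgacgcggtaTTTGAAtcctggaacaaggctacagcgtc
PLK1, chr16:23678769-23678888, plus strand: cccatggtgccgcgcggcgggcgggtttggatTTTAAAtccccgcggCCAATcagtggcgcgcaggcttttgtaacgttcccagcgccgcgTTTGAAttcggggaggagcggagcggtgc
MKI67, chr10:128126424-128126543, minus strand: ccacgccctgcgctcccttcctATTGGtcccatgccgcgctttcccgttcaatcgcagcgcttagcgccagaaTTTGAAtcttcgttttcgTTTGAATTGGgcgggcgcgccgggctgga
BUB1B, chr15:40160949-40161068, plus strand: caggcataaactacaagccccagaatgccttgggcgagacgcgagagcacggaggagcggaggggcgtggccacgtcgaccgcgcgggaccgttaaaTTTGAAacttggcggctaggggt
All 6 hold a TTTGAA close to the start site, and all but BUB1B hold a CCAAT in this stretch. The 6 were picked by hand, so what they share says nothing of the other members. Of the 32 members with a window, 15 had a TTTGAA within 60 bases before a start site. The windows of CCNB1 and AURKB, called as HMMR was, and of BUB1, called as CCNB2 was, held no TTTGAA. As given below, HMMR and PRC1 rose in 3 of the 4 siRNA comparisons, CCNB2 was called in none of them, PLK1 was called in 1, and MKI67 and BUB1B were called in opposite directions with the Stat3 and the Stat5a/b siRNA. HMMR and MKI67, whose stretches hold both motifs, were called in opposite directions with the Stat5a/b siRNA in DU145, though the call of MKI67 was lost in some fits given below. The part of the motifs in the changes was not tested.

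Stat3 siRNA raised most of the mitotic genes in DU145. The mean level of the 39 genes was 10.46, 10.50 and 10.50 on the scramble arrays and 10.69, 10.68 and 10.74 on the Stat3 siRNA arrays. The groups did not overlap. Of the 39 genes 25 rose and 1 fell, where 15.8% of all genes were called (7.51% higher, 8.25% lower). The members' median change was 0.21, with a range from -0.16 to 0.73, and the median over all genes was 0.0056. The arrays did not overlap for 28 genes (26.2% of all genes), with all 3 Stat3 siRNA arrays above all 3 scramble arrays for 27 (13% of all genes).

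**Figure D1:**
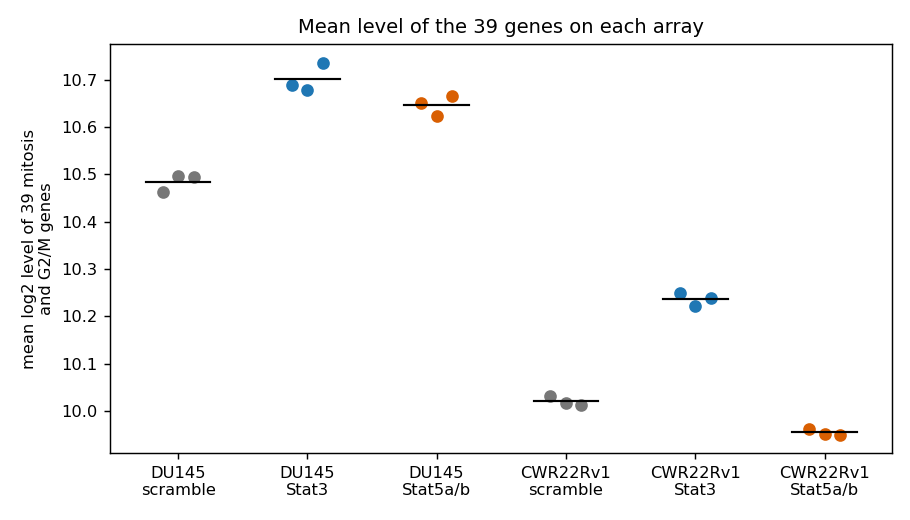
Mean log2 level of the 39 genes on each array (points) and the mean of each group's 3 arrays (bars), by line and siRNA. Stat3 siRNA arrays lie above their line's scramble arrays in both lines, and Stat5a/b siRNA arrays lie above them in DU145 (10.62 to 10.67) and below them in CWR22Rv1 (9.95 to 9.96).

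HMMR, a microtubule-binding protein of the spindle poles, changed most among the 39. It read 10.35, 10.37 and 10.45 on the scramble arrays and 11.01, 11.08 and 11.27 with Stat3 siRNA. Its rise of 0.73 ± 0.068 (adjusted p = 1.9e-06) took it to 166% of the control. PRC1, which bundles the microtubules of the spindle midzone, read 11.26, 11.37 and 11.44 on scramble arrays and 11.73, 11.74 and 11.70 with Stat3 siRNA, a rise of 0.36 ± 0.057 (adjusted p = 3.2e-04). NUSAP1, which stabilises spindle microtubules, read 11.38, 11.34 and 11.31 and then 11.61, 11.71 and 11.73, a rise of 0.34 ± 0.057 (adjusted p = 4.8e-04). CDK1, the kinase that drives entry into mitosis, read 11.22, 11.31 and 11.30 and then 11.58, 11.60 and 11.62, a rise of 0.32 ± 0.055 (adjusted p = 7.0e-04). For these 4 genes the groups did not overlap.

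By role, all 6 genes of the midzone and cytokinesis rose in DU145: PRC1, KIF20A, KIF23, ECT2, RACGAP1 and ANLN, with changes from 0.25 to 0.36. With DU145 fitted alone, only PRC1 and RACGAP1 of these kept their calls. ECT2 and KIF23 also lost theirs with averaged probe sets and with array weights. Both were lost as well without the scramble array of replicate 1 or 3 or the Stat3 siRNA array of replicate 2. Of the 6 spindle motors and microtubule proteins 5 rose, and DLGAP5 (0.13 ± 0.069) was not called. Of the 7 entry genes 4 rose, namely CDK1, CCNB1 (0.31 ± 0.054), CCNA2 (0.31 ± 0.072) and the transcription factor gene FOXM1 (0.28 ± 0.067), while CCNB2 (0.14 ± 0.056), CKS2 (0.07 ± 0.049) and the phosphatase gene CDC25C (0.05 ± 0.066) were not called. Of the 4 checkpoint genes 1 rose, BUB1B, and of the 4 anaphase genes the ubiquitin-conjugating enzyme UBE2C (0.35 ± 0.063) and securin, PTTG1 (0.18 ± 0.050), rose. Of the 5 centromere and kinetochore genes CENPA, the centromeric histone (0.35 ± 0.065), and NDC80, an outer kinetochore protein (0.21 ± 0.061), rose. Both chromosome genes, TOP2A and MKI67, rose, by 0.19 ± 0.061 and 0.20 ± 0.061. The call of TOP2A was lost in the fit with the replicate block (adjusted p = 0.0516). It was also lost with averaged probe sets, with array weights and with DU145 fitted alone. Leaving out any 1 array other than the scramble array of replicate 2 ended it too.

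The kinase genes PLK1 and AURKA stood apart in DU145. PLK1, polo-like kinase, read 8.93, 8.86 and 8.86 on scramble arrays and 9.52, 9.06 and 9.44 with Stat3 siRNA. Its rise of 0.46 ± 0.090 (adjusted p = 0.0019) came with a wide spread within the group, since the Stat3 siRNA array of replicate 2 sat well below the others, though still above all controls. AURKA, the Aurora kinase of centrosomes, was the only member called lower, at 11.41, 11.38 and 11.37 against 11.23, 11.20 and 11.26, a change of -0.16 ± 0.050 (adjusted p = 0.0421). That call was lost without any 1 of the 6 arrays (adjusted p from 0.0547 to 0.117), with array weights (0.115), with DU145 fitted alone (0.237) and with the mean of its probe sets (0.292), while TPX2, the activator of Aurora A, rose by 0.25 ± 0.055. The call of MKI67 was lost without any 1 array other than the Stat3 siRNA array of replicate 2 (adjusted p from 0.0550 to 0.104), with array weights (0.117) and with DU145 fitted alone (0.137).

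The count in DU145 depended on how the spread was estimated. The fit pools the spread of both lines, and the median SD of the members within a group was 0.0478 to 0.0898 in DU145 against 0.0325 to 0.0424 in CWR22Rv1. With DU145 fitted alone 10 of the 39 genes were called, with array weights 17, and without the scramble array of replicate 1 also 17.

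In CWR22Rv1, Stat3 siRNA also raised the program. The mean of the 39 genes was 10.03, 10.02 and 10.01 on the scramble arrays and 10.25, 10.22 and 10.24 with Stat3 siRNA, again without overlap. Of the 39 genes 22 rose and 0 fell, where 4.77% of all genes were called (2.75% higher, 2.02% lower). At an unadjusted p under 0.05 limma gave 31 higher and 0 lower. The median change of the members was 0.23 and that of all genes -0.0042. For 35 of the 39 genes every Stat3 siRNA array lay above every scramble array, as it did for 17.5% of all genes. As in every group, the members varied less than all genes. Their median SD was 0.0325 on scramble and 0.0381 on Stat3 siRNA arrays, against 0.0724 and 0.0731 over all genes. The members were also bright, from CDC25C at percentile 70.4 of mean level to PTTG1 at 98.8. The part of spread and level in the shares called was not tested.

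UBE2C, which with the anaphase-promoting complex tags cyclin B for destruction, had the smallest adjusted p. It read 10.23, 10.27 and 10.25 on scramble arrays and 10.64, 10.66 and 10.67 with Stat3 siRNA, a rise of 0.41 ± 0.063 (adjusted p = 0.0012). HMMR read 10.56, 10.54 and 10.56 and then 10.98, 10.86 and 11.01, a rise of 0.40 ± 0.068 (adjusted p = 0.0026). NUSAP1 read 10.88, 10.77 and 10.81 and then 11.15, 11.13 and 11.15, a rise of 0.32 ± 0.057 (adjusted p = 0.0030). The spindle pole protein gene ASPM read 10.79, 10.75 and 10.78 and then 11.01, 11.06 and 10.998, a rise of 0.25 ± 0.050 (adjusted p = 0.0082). None of the 4 overlapped between groups, and ASPM lost its call when its probe sets were averaged (adjusted p = 0.0883).

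All 6 spindle motors and microtubule proteins rose in CWR22Rv1: KIF11, KIF2C, NUSAP1, ASPM, HMMR and DLGAP5. So did 3 of the 4 anaphase genes, 3 of the 5 centromere and kinetochore genes and 4 of the 7 entry genes. CENPE, a kinetochore motor, rose by 0.32 ± 0.067, and CDC25C, the phosphatase that activates CDK1, by 0.30 ± 0.066. Of the midzone and cytokinesis genes only PRC1 (0.26 ± 0.057) and KIF20A (0.26 ± 0.065) were called among 6, and of the checkpoint genes only BUB1B (0.21 ± 0.052). BIRC5, or survivin, a chromosomal passenger, gave 0.02 ± 0.059 here and 0.03 ± 0.059 in DU145, and TTK, a checkpoint kinase, 0.10 ± 0.059 and 0.03 ± 0.059.

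Leaving out any 1 of the 6 CWR22Rv1 arrays lowered the count from 22 to between 9 and 13: 11 without the scramble array of replicate 1 or 2, 9 without that of replicate 3, and 9, 13 and 11 without the Stat3 siRNA arrays of replicates 1, 2 and 3. The call of BUB1B was lost each time (adjusted p from 0.0826 to 0.104), as were those of AURKB, CDK1, CENPA, CENPF and KIF20A. KIF2C and CCNB1 lost theirs without any 1 array other than the Stat3 siRNA array of replicate 2. KIF2C was also lost with averaged probe sets. PTTG1 and ESPL1 lost their calls without any 1 array other than the scramble array of replicate 2. With CWR22Rv1 fitted alone 28 of the 39 genes were called.

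**Figure D2:**
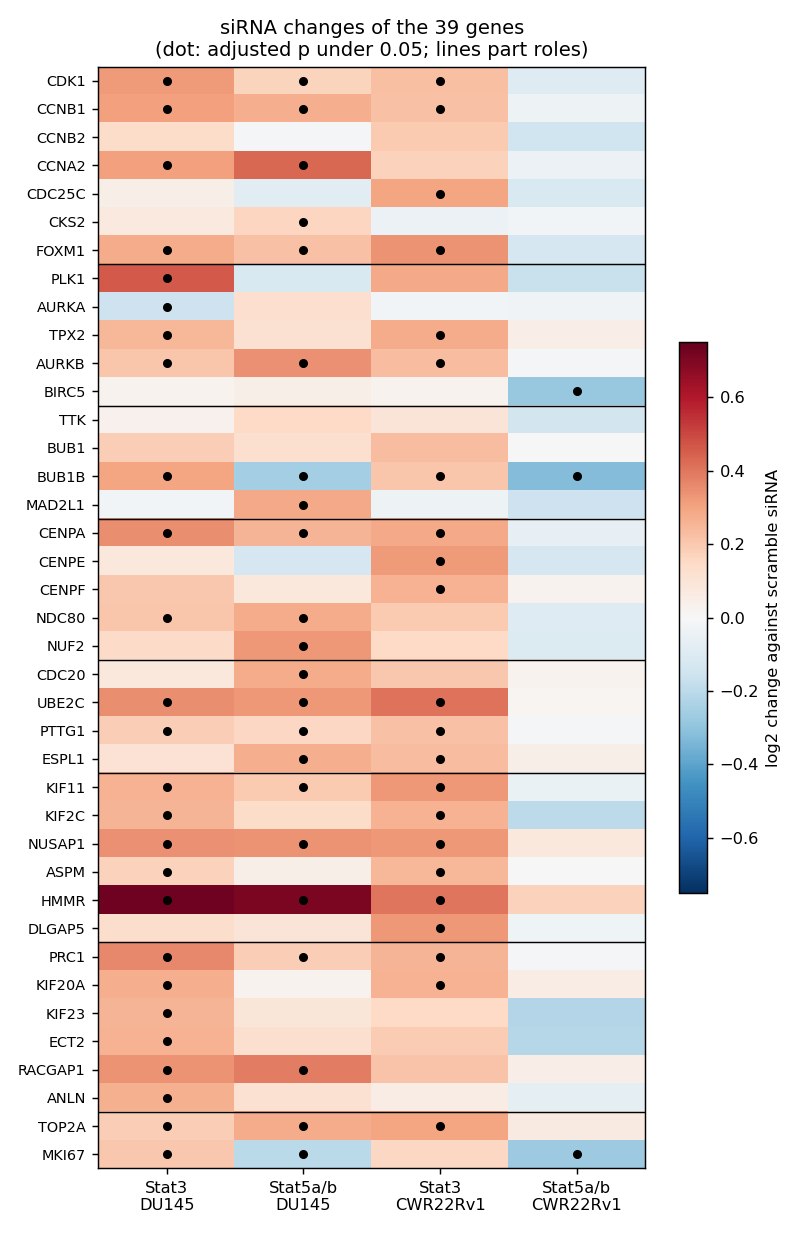
Log2 change of each of the 39 genes (rows, grouped by role from mitotic entry at the top to chromosome genes at the bottom) for each siRNA against its line's scramble arrays (columns), with a dot where limma's adjusted p was under 0.05. Both Stat3 siRNA columns and the Stat5a/b siRNA column of DU145 are mostly red (25, 22 and 20 genes called higher), and the Stat5a/b siRNA column of CWR22Rv1 has 3 dots, all lower.

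The response to Stat3 siRNA was not found to differ between the lines. The comparisons in the 2 lines share no arrays. Of the 25 genes that rose in DU145 and the 22 that rose in CWR22Rv1, 17 rose in both, which is 68% of the DU145 list and 77.3% of the CWR22Rv1 list. Over all genes the same shares were 22.7% and 62.1%. Tested directly, the difference of the Stat3 siRNA change between the lines was called for 0 of the 39 genes (3% of all genes, 1.82% higher and 1.18% lower), and at an unadjusted p under 0.05 limma gave 4 (2 larger and 2 smaller in CWR22Rv1). The differences ran from -0.33 to 0.25 with 95% intervals reaching up to 0.296 to either side, so differences of that size could have been missed. HMMR came nearest, at -0.33 ± 0.097 (adjusted p = 0.0800), and it was called with only genes above the median level, a trend in the prior variance, array weights, the replicate block, or without the Stat3 siRNA array of replicate 1 in DU145. Without that of replicate 2, PLK1 was called instead.

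With Stat5a/b siRNA more of the 39 genes rose than fell in DU145. Their mean was 10.65, 10.62 and 10.67 on the Stat5a/b siRNA arrays, above the scramble arrays given above (10.46 to 10.50). Of the 39 genes 20 rose and 2 fell, where 24.3% of all genes were called (11.8% higher, 12.5% lower), and the median change was 0.15 against 0.011 over all genes. For 24 genes all Stat5a/b siRNA arrays lay above all scramble arrays (16.6% of all genes), and for 3 below (17.8%). With DU145 fitted alone the count was 11, and it was 14 without the scramble array of replicate 1 or the Stat5a/b siRNA array of replicate 1.

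HMMR again changed most, reading 11.08, 11.05 and 11.17 with Stat5a/b siRNA, a rise of 0.71 ± 0.068 (adjusted p = 2.0e-06). RACGAP1, a regulator of the cleavage furrow, read 11.04, 11.07 and 10.92 on scramble arrays and 11.39, 11.41 and 11.38 with Stat5a/b siRNA, a rise of 0.38 ± 0.063 (adjusted p = 3.0e-04). CCNA2, cyclin A2, read 9.12, 9.27 and 9.27 and then 9.67, 9.62 and 9.66, a rise of 0.43 ± 0.072 (adjusted p = 3.4e-04). For all 3 genes the groups did not overlap. NUSAP1, at 11.72, 11.73 and 11.58, rose by 0.34 ± 0.057 (adjusted p = 3.9e-04).

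All 4 anaphase genes were called higher in DU145: CDC20, the activator of the anaphase-promoting complex (0.28 ± 0.071), UBE2C (0.32 ± 0.063), PTTG1 (0.15 ± 0.050) and separase, ESPL1 (0.27 ± 0.059). With DU145 fitted alone CDC20 and PTTG1 lost their calls. PTTG1 also lost its call without scramble replicate 2 or 3 or Stat5a/b replicate 1 or 2. Of the 7 entry genes 5 rose, with CCNB1 at 0.27 ± 0.054 and CKS2, a CDK subunit, at 0.16 ± 0.049. Among these, CKS2, CDK1 and FOXM1 lost their calls with DU145 fitted alone. CKS2 also lost its call without scramble replicate 1 or 3 or Stat5a/b replicate 1 or 2. The kinetochore genes NDC80 (0.28 ± 0.061) and NUF2 (0.33 ± 0.096), whose proteins bind each other, both rose, as did the checkpoint gene MAD2L1 (0.28 ± 0.099). NUF2 lost its call with DU145 fitted alone and without scramble replicate 1 or Stat5a/b replicate 3. The call of MAD2L1 was lost with DU145 fitted alone and with cyclic loess rescaling of the arrays. It was also lost without scramble replicate 1 or 2 or Stat5a/b replicate 1 or 2. Of the 5 kinase and passenger genes only AURKB, the Aurora kinase of the chromosomal passenger complex, was called (0.34 ± 0.064), and of the 6 midzone and cytokinesis genes only PRC1 and RACGAP1. A second, dimmer probe set of AURKB gave -0.49 in this comparison, not called, so with the mean of its probe sets the sign of AURKB turned.

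In CWR22Rv1, few of the 39 genes were called with Stat5a/b siRNA. Their mean was 9.96, 9.95 and 9.95, below all 3 scramble arrays (10.01 to 10.03). Of the 39 genes 3 fell and 0 rose, where 6.46% of all genes were called (3.16% higher, 3.3% lower). The share of members called, 7.69%, was thus near that of all genes. At an unadjusted p under 0.05 limma gave 8 lower and 1 higher, HMMR (0.18 ± 0.068, adjusted p = 0.170). The median change was -0.041, against 0.024 over all genes. All Stat5a/b siRNA arrays lay below all scramble arrays for 18 genes (13.8% of all genes) and above for 3 (17.3%). The count rose to 7 with only genes above the median level or with a trend in the prior variance, to 9 with array weights and to 6 with CWR22Rv1 fitted alone.

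The 3 genes that fell were BUB1B, BIRC5 and MKI67. BUB1B, the checkpoint kinase BubR1, read 10.53, 10.53 and 10.56 on scramble arrays and 10.18, 10.24 and 10.21 with Stat5a/b siRNA, a fall to 79.8% of the control (-0.33 ± 0.052, adjusted p = 9.4e-04). BIRC5 read 10.61, 10.59 and 10.57 and then 10.32, 10.35 and 10.24 (-0.28 ± 0.059, adjusted p = 0.0072). MKI67, which encodes the Ki-67 protein that coats mitotic chromosomes and serves as a proliferation marker, read 9.15, 9.27 and 9.19 and then 8.97, 8.996 and 8.84 (-0.27 ± 0.061, adjusted p = 0.0131). None of the 3 overlapped between groups. The call of MKI67 was lost without the scramble array of replicate 2 (adjusted p = 0.0683) or the Stat5a/b siRNA array of replicate 3 (adjusted p = 0.0772).

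The 3' minus 5' difference of the GAPDH control probe sets, a sign of RNA integrity, was 0.147, 0.140 and 0.125 on the Stat5a/b siRNA arrays of CWR22Rv1 and 0.062, 0.097 and 0.091 on its scramble arrays, without overlap. That of ACTB overlapped (0.728 to 0.841 against 0.750 to 0.769). Their part in the lower levels was not tested.

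The change with Stat5a/b siRNA differed between the lines. The difference, CWR22Rv1 minus DU145, was called for 14 of the 39 genes, all of them lower in CWR22Rv1, where 11.9% of all genes were called (6.75% higher, 5.17% lower). Its median over the 39 genes was -0.25, against 0.013 over all genes, and it ran from -0.53 to 0.027. It was largest for HMMR, at -0.53 ± 0.097 (adjusted p = 0.0023), from the rise of 0.71 in DU145 and the change of 0.18 in CWR22Rv1. For CCNA2 it was -0.47 ± 0.101 (adjusted p = 0.0066), from 0.43 and -0.04, with readings in CWR22Rv1 of 9.76, 9.69 and 9.74 on scramble arrays and 9.67, 9.68 and 9.72 with Stat5a/b siRNA.

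NDC80 and CCNB1 followed. NDC80 read 10.66, 10.74 and 10.71 on scramble arrays of DU145 and 10.94, 10.95 and 11.07 with Stat5a/b siRNA, but 9.81, 9.72 and 9.77 and then 9.67, 9.71 and 9.62 in CWR22Rv1, a difference of -0.38 ± 0.086 (adjusted p = 0.0091). CCNB1, cyclin B1, read 11.52, 11.56 and 11.50 and then 11.78, 11.78 and 11.84 in DU145, and 11.04, 11.05 and 11.04 and then 11.05, 11.02 and 10.95 in CWR22Rv1, a difference of -0.31 ± 0.077 (adjusted p = 0.0140). In DU145 the Stat5a/b siRNA arrays of both genes lay above all controls, and in CWR22Rv1 those of NDC80 lay below all controls and those of CCNB1 overlapped with them. BUB1B and MKI67, by contrast, gave differences that were not called, since they had fallen with Stat5a/b siRNA in both lines.

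The count of 14 moved with single arrays. It was 9 without DU145 scramble replicate 1, CWR22Rv1 scramble replicate 2 or 3, or CWR22Rv1 Stat5a/b replicate 1, and 8 without CWR22Rv1 scramble replicate 1 or Stat5a/b replicate 2. It was 24 with a trend in the prior variance and 23 with array weights, and AURKB turned sign with the mean of its probe sets.

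**Figure D3:**
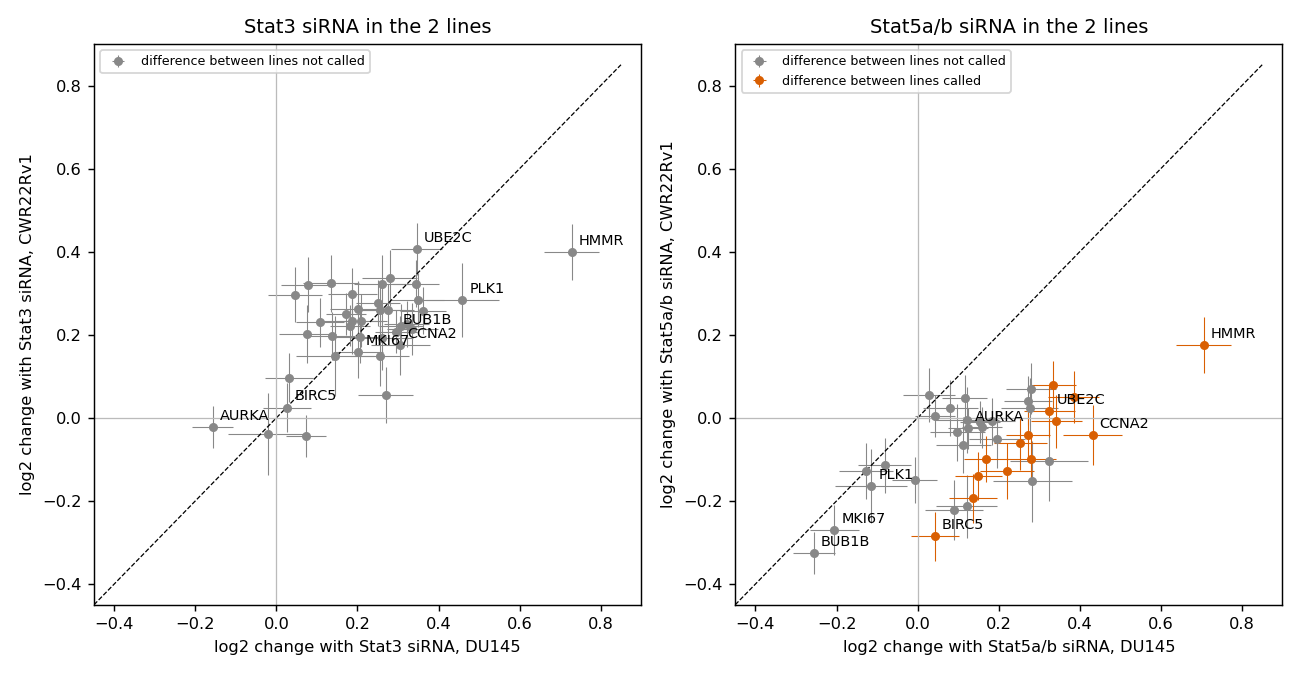
Log2 change of each of the 39 genes in DU145 (horizontal) and CWR22Rv1 (vertical) with Stat3 siRNA (left) and Stat5a/b siRNA (right), with bars of 1 standard error and a dashed line of equal change. Points scatter around the line for Stat3 siRNA, with 0 genes called different, and lie mostly below it for Stat5a/b siRNA, with 14 genes called different (orange).

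Set directly against each other, the siRNAs gave different levels of most of these genes in CWR22Rv1 and of 8 in DU145. In CWR22Rv1, 28 of the 39 genes were lower with Stat5a/b than with Stat3 siRNA and 0 higher, where 10.8% of all genes were called (4.7% higher, 6.05% lower). At an unadjusted p under 0.05 limma gave 35 lower and 0 higher. For 37 genes all Stat5a/b siRNA arrays lay below all Stat3 siRNA arrays (17.3% of all genes) and for 0 above (19.5%), and the median difference was -0.25 against 0.030 over all genes. The exceptions were CKS2 (0.02 ± 0.049) and AURKA (-0.004 ± 0.050), whose arrays overlapped. The GAPDH 3' minus 5' difference given above for the Stat5a/b siRNA arrays of CWR22Rv1 (0.125 to 0.147) did not overlap that of its Stat3 siRNA arrays either (0.0719 to 0.0994), and its part in this result was not tested.

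The difference in CWR22Rv1 was firmest for BUB1B, which read 10.74, 10.74 and 10.75 with Stat3 siRNA and 10.18, 10.24 and 10.21 with Stat5a/b siRNA (-0.53 ± 0.052, adjusted p = 5.2e-06). KIF2C, a motor that takes microtubules apart at kinetochores, read 10.21, 10.06 and 10.15 and then 9.71, 9.69 and 9.65 (-0.45 ± 0.060, adjusted p = 1.1e-04). MKI67 read 9.34, 9.44 and 9.31 with Stat3 siRNA, and its difference was -0.43 ± 0.061 (adjusted p = 2.4e-04). FOXM1, the transcription factor of the late cell cycle program, read 9.99, 10.00 and 9.96 and then 9.48, 9.56 and 9.52 (-0.46 ± 0.067, adjusted p = 2.7e-04), with its scramble arrays between, at 9.61, 9.72 and 9.62. All 6 motors and microtubule proteins were called lower, as were 4 of the 5 kinase and passenger genes and 5 of the 7 entry genes.

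In DU145, 6 of the 39 genes were lower with Stat5a/b than with Stat3 siRNA and 2 were higher, where 22.1% of all genes were called (11% higher, 11.2% lower), so the share of members called was near that of all genes. The median difference was -0.059. BUB1B read 11.04, 10.98 and 11.11 with Stat3 siRNA and 10.51, 10.42 and 10.54 with Stat5a/b siRNA (-0.55 ± 0.052, adjusted p = 1.2e-06). PLK1 fell in that direction from the readings given above to 8.78, 8.73 and 8.79 (-0.57 ± 0.090, adjusted p = 2.0e-04). AURKA went the other way, from 11.23, 11.20 and 11.26 to 11.52, 11.47 and 11.54 (0.28 ± 0.050, adjusted p = 6.3e-04). KIF20A (-0.25 ± 0.065), CENPE (-0.21 ± 0.067) and MKI67 (-0.41 ± 0.061) were among the lower genes, and MAD2L1 (0.30 ± 0.099) was the other higher one. The count was 14 with only genes above the median level, 15 with a trend in the prior variance, 4 with DU145 fitted alone and 5 without the Stat5a/b siRNA array of replicate 1. Without the Stat3 siRNA array of replicate 1, 4 of the 8 genes lost their calls, namely MAD2L1 (adjusted p = 0.171), KIF20A (0.0570), CENPE and PRC1. MAD2L1 also lost its call without the Stat5a/b siRNA array of replicate 1 (0.0926) or 2 (0.118), as did CENPE and PRC1. CENPE was lost as well without the Stat3 siRNA array of replicate 3, and PRC1 without that of replicate 2.

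BUB1B and MKI67 were the members called in opposite directions with the siRNAs. Both siRNA groups of a line share its scramble arrays, so the values are given side by side. In DU145, BUB1B read 10.74, 10.74 and 10.77 on scramble arrays, rose by 0.29 ± 0.052 with Stat3 siRNA (adjusted p = 8.2e-04) and fell with Stat5a/b siRNA (-0.26 ± 0.052, adjusted p = 0.0016). In CWR22Rv1 it changed by 0.21 ± 0.052 (adjusted p = 0.0292) and -0.33 ± 0.052. In each line its 3 scramble arrays lay between the arrays of the 2 siRNAs.

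MKI67 read 10.21, 10.20 and 10.14 on scramble arrays of DU145, 10.46, 10.33 and 10.38 with Stat3 siRNA and 9.97, 9.97 and 10.01 with Stat5a/b siRNA. The changes were 0.20 ± 0.061 (adjusted p = 0.0329) and -0.21 ± 0.061 (adjusted p = 0.0214). In CWR22Rv1 the Stat3 siRNA change of 0.16 ± 0.061 was not called (adjusted p = 0.181), although it was with array weights (0.0421). The DU145 call with Stat5a/b siRNA was lost with the line fitted alone (adjusted p = 0.0926) and without scramble replicate 1 or 2 or Stat5a/b replicate 1 or 2 (up to 0.0695). As with BUB1B, the scramble arrays lay between the arrays of the siRNAs in both lines. The related checkpoint kinase gene BUB1 was called in neither line (0.19 ± 0.079 and 0.12 ± 0.079 in DU145, 0.23 ± 0.079 and -0.001 ± 0.079 in CWR22Rv1, for Stat3 and Stat5a/b siRNA).

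**Figure D4:**
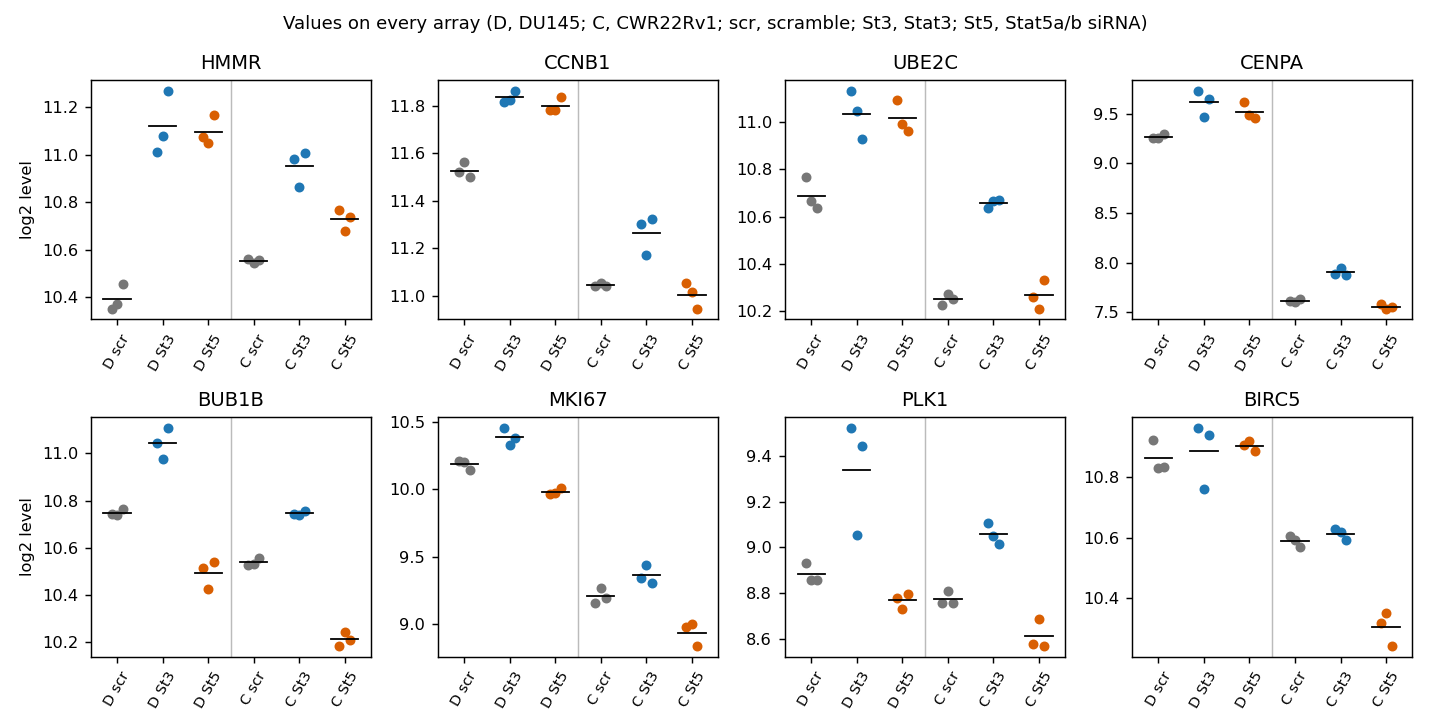
Log2 level of 8 of the genes on every array (points; bars are means of 3 arrays; the vertical line parts DU145 from CWR22Rv1; each panel has its own scale). HMMR, CCNB1, UBE2C and CENPA lie above the control with Stat3 siRNA in both lines and, in DU145, with Stat5a/b siRNA, whereas BUB1B and MKI67 lie above the control with Stat3 siRNA and below it with Stat5a/b siRNA in both lines.

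On the scramble arrays most of the 39 genes were lower in CWR22Rv1. Of the 39 genes 29 were lower than in DU145 and 5 higher, where 56.9% of all genes were called (30% higher, 27% lower), and the median difference was -0.44 against 0.033 over all genes. The arrays of the lines did not overlap for 36 of the 39 genes (63.5% of all genes). CENPA read 9.25, 9.26 and 9.30 in DU145 and 7.61, 7.60 and 7.63 in CWR22Rv1, a level in CWR22Rv1 of 31.8% of that in DU145 (-1.65 ± 0.065, adjusted p = 6.8e-13). KIF20A, a midzone motor, read 10.67, 10.70 and 10.73 and 9.16, 9.25 and 9.16 (-1.51 ± 0.065, adjusted p = 2.0e-12). DLGAP5, a spindle assembly protein, read 10.91, 10.93 and 11.04 and 9.44, 9.41 and 9.38 (-1.55 ± 0.069, adjusted p = 3.4e-12). AURKA read 11.41, 11.38 and 11.37 and 10.29, 10.28 and 10.32 (-1.09 ± 0.050, adjusted p = 5.2e-12). For these 4 genes the arrays of the lines lay far apart.

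The higher genes in CWR22Rv1 were NUF2 (0.75 ± 0.096), FOXM1 (0.55 ± 0.067), CCNA2 (0.51 ± 0.072), MAD2L1 (0.46 ± 0.099) and KIF2C (0.16 ± 0.060). NUF2 read 9.37, 9.65 and 9.68 in DU145 and 10.32, 10.34 and 10.28 in CWR22Rv1, while its partner NDC80 was among the lower genes (-0.94 ± 0.061). HMMR, KIF11, RACGAP1, PRC1 and PLK1 were not called. FOXM1 was thus higher in the line in which most genes of the program were lower. The ACTB 3' minus 5' difference was 0.454 to 0.598 on the DU145 scramble arrays and 0.750 to 0.769 on those of CWR22Rv1, and its part in the baseline differences was not tested. No other line was measured, so line and any handling that went with it cannot be told apart.

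**Figure D5:**
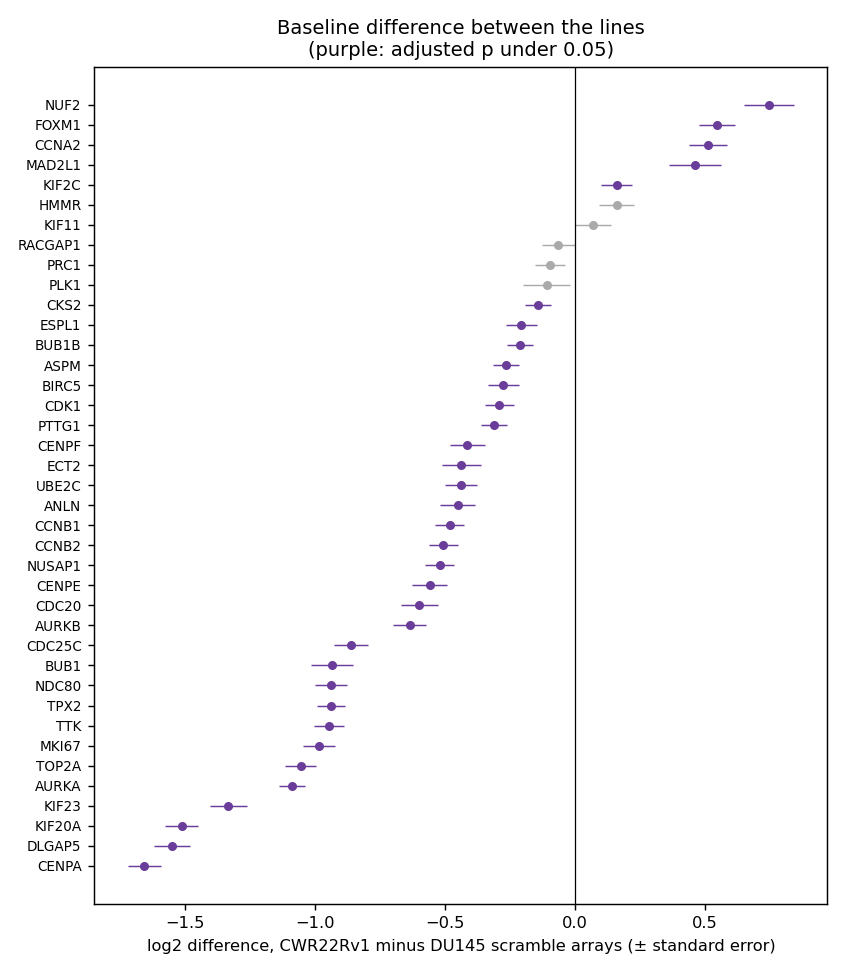
Log2 difference between the scramble arrays of CWR22Rv1 and DU145 for each of the 39 genes, sorted by size, with bars of 1 standard error; purple points had an adjusted p under 0.05 in limma. Of the 39 genes 29 lie below 0 and were called, down to -1.65 for CENPA, and 5 lie above 0 and were called, up to 0.75 for NUF2.

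Mitotic genes outside the 39 were called too, in both directions in each line. Of 128 further genes of mitosis listed by function 123 were measured. With Stat3 siRNA 27 rose and 4 fell in DU145 (median change 0.11), where 7.51% of all genes rose and 8.25% fell. In CWR22Rv1 25 rose and 0 fell with it (median 0.14), against 2.75% and 2.02% of all genes. With Stat5a/b siRNA 34 rose and 10 fell in DU145 (median 0.063), against 11.8% and 12.5%, and 2 rose and 16 fell in CWR22Rv1 (median -0.11), against 3.16% and 3.3%. Against Stat3 siRNA, 67 were lower and 1 higher with Stat5a/b siRNA in CWR22Rv1, where 6.05% of all genes were lower and 4.7% higher. The difference of the Stat5a/b siRNA change between the lines was called for 30 of them, 2 higher and 28 lower in CWR22Rv1, against 6.75% higher and 5.17% lower over all genes.

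Among entry regulators, WEE1, the kinase that holds CDK1 inactive, rose in DU145 by 1.01 ± 0.069 with Stat3 siRNA and 1.17 ± 0.069 with Stat5a/b siRNA. In CWR22Rv1 it rose by 0.66 ± 0.069 with Stat3 siRNA and gave 0.20 ± 0.069 (adjusted p = 0.106) with Stat5a/b siRNA. CDC25B, a phosphatase that removes the phosphate WEE1 adds, fell in DU145 with Stat3 siRNA (-0.58 ± 0.072) and with Stat5a/b siRNA (-0.41 ± 0.072). ARPP19, which shields CDK1 substrates from a phosphatase, fell with Stat5a/b siRNA in both lines, by 0.71 ± 0.057 in DU145 and by 0.46 ± 0.057 in CWR22Rv1. LMNB1, lamin B1, rose with Stat3 siRNA in DU145 (0.87 ± 0.093) and CWR22Rv1 (0.57 ± 0.093).

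At the kinetochore, SPC24, a partner of NDC80 and NUF2, was called in opposite directions in DU145, as BUB1B was, higher with Stat3 siRNA (0.52 ± 0.069) and lower with Stat5a/b siRNA (-0.22 ± 0.069). PMF1, of the MIS12 complex, fell with Stat5a/b siRNA in both lines (-0.77 ± 0.058 in DU145 and -0.37 ± 0.058 in CWR22Rv1), and so did MIS18A, which helps load CENPA (-0.44 ± 0.090 and -0.75 ± 0.090). SKA2, of the microtubule-binding SKA complex, was one of the 2 genes that rose with Stat5a/b siRNA in CWR22Rv1 (0.32 ± 0.068), and it rose in the other 3 siRNA comparisons too. Within the anaphase-promoting complex CDC23 rose with Stat3 siRNA in DU145 (0.64 ± 0.060) while CDC26 fell (-0.49 ± 0.070).

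The arrays carry 77 probe sets for the 39 genes, with 21 genes having more than 1. Of the 38 probe sets not chosen, 32 changed in the direction of the chosen one with Stat3 siRNA in DU145, 33 with Stat3 siRNA in CWR22Rv1, and for Stat5a/b siRNA the numbers were 24 (DU145) and 28 (CWR22Rv1). No probe set was called in the direction opposite to a called choice in these 4 comparisons. Of the other probe sets of called genes, 9 of 10 (DU145) and 7 of 8 (CWR22Rv1) pointed the same way as the chosen one with Stat3 siRNA, and 6 of 8 and 6 of 6 with Stat5a/b siRNA. Between the scramble arrays of the lines 30 of 36 did, and 4 probe sets were called in the opposite direction, 2 of MKI67 and 1 each of BIRC5 and CCNA2, so the direction of these 3 genes between the lines depends on the probe set.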

How the data were processed

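Gene expression was measured on 18 arrays, 3 for each of 6 groups taken from the labels. The authors deposited 1 log2 value per probe set and array, made with RMA (background correction, quantile normalisation and summary of probes), which the submitters' processing notes name together with limma, without versions. They ran from 1.54 to 14.3, with array medians of 5.16 to 5.20, and were not rescaled. Array builds and coordinates are not given in the sources used here. Of 54675 probe sets 41091 had 1 gene symbol in the platform annotation, 1801 several and 11721 none, and 62 were controls. For each of 19775 genes, the probe set used was the brightest, by its mean over the 18 arrays, of those with only that symbol.

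One model with a mean per group was fitted to all arrays with limma 3.58.1 in R 4.3.3 (lmFit, eBayes; 12 residual and 3.82 prior degrees of freedom), with two-sided tests whose p-values were adjusted by Benjamini-Hochberg over all genes of each comparison, and calls at an adjusted p under 0.05. The script was tested on simulated data. The number of arrays limits the precision: the 95% interval of a change reached up to 0.209 to either side of it among the 39 genes. The members, their roles and the other lists were chosen with earlier results of these data known, and the same arrays had been examined before.

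Every member may be named. Values on each array are given for up to 4 called members with the smallest adjusted p in each direction of a comparison and for members called in opposite directions, with PLK1 added after its values were seen. Genes of other lists are up to 4 called per function and direction. Alternatives were other probe set rules, a filter on dim genes, a replicate block, a trend in the prior variance, array weights, each line alone, rescaled arrays and leaving out each array. Same-numbered arrays were taken as pairs where the correlation of their deviations from the group means passed 0.1 for all 3 pairs, which held only for the scramble and Stat3 siRNA arrays of DU145.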

Additional observations from a re-analysis of the deposited data

Results flagged for a closer look

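For 14 of the 39 genes the change with Stat5a/b siRNA differed between the lines by limma's test of the difference itself, with a more positive change in DU145 than in CWR22Rv1 in every case. The difference (CWR22Rv1 minus DU145, log2) was -0.53 for the spindle pole gene HMMR (adjusted p = 0.0023), -0.47 for CCNA2 (0.0066), -0.38 for NDC80 (0.0091) and -0.31 for CCNB1 (0.0140). It was -0.33 for KIF2C (0.0176), -0.33 for the passenger gene BIRC5 (0.0178), -0.35 for its partner AURKB (0.0185) and -0.33 for RACGAP1 (0.0217). It was -0.35 for FOXM1 (0.0252), -0.29 for TTK (0.0323), -0.31 for UBE2C (0.0327), -0.27 for CDK1 (0.0348), -0.31 for CENPA (0.0365) and -0.26 for NUSAP1 (0.0486). For BIRC5 the difference came from the fall in CWR22Rv1, and for KIF2C and TTK neither line's change was called on its own.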

How the results depend on the processing

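No called change of the 39 genes turned sign under the alternatives run, apart from that of AURKB with averaged probe sets as given above. Counts of the 39 genes called that moved by over 1.5 times were as follows. With Stat3 siRNA in DU145 (26 called) array weights gave 17 and DU145 alone 10. With Stat5a/b siRNA in DU145 (22) DU145 alone gave 11. With Stat5a/b siRNA in CWR22Rv1 (3) genes above the median level and a trend in the prior variance gave 7 each, array weights 9 and the line alone 6. For Stat5a/b against Stat3 siRNA in DU145 (8) they were 14 with genes above the median level, 15 with the trend and 4 with the line alone. The difference of the Stat3 siRNA change between lines (0) became 1 with genes above the median level, with the trend, with array weights and with the replicate block. That of the Stat5a/b siRNA change (14) became 24 with the trend and 23 with array weights.

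Leaving out each array gave 17 to 22 with Stat3 siRNA and 14 to 19 with Stat5a/b siRNA in DU145, 9 to 13 and 2 to 3 in CWR22Rv1, 5 to 9 and 23 to 26 for Stat5a/b against Stat3 siRNA in DU145 and CWR22Rv1, 0 to 1 and 8 to 14 for the differences between lines, and 32 to 35 for the scramble arrays of the lines.

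The labels number replicates alike across groups. Same-numbered arrays deviated together at 0.0116 to 0.328 in DU145 and -0.0666 to 0.139 in CWR22Rv1, and every same-numbered pair passed 0.1 only between the scramble and Stat3 siRNA arrays of DU145 (0.158 to 0.328), where the block ended the call of TOP2A. When each array was set against the 3 arrays of each other group of its line, the best correlation was with its own number in 15 of 18 cases in DU145 and 8 of 18 in CWR22Rv1. With the replicate block the counts were 25 and 23 in DU145, 22 and 4 in CWR22Rv1 (Stat3, then Stat5a/b siRNA), 11 and 31 for Stat5a/b against Stat3 siRNA in DU145 and CWR22Rv1, 1 and 17 for the differences between lines, and 34 for the scramble arrays. How far a value lay above background is unknown, since detection calls were not used here.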

Other observations

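Genes of DNA replication and the G1/S transition, 43 of 44 listed genes measured, were called with the siRNAs in similar directions to the mitotic genes. With Stat3 siRNA 17 rose and 0 fell in DU145 (median change 0.17), where 7.51% of all genes rose and 8.25% fell, and 9 rose and 0 fell in CWR22Rv1 (median 0.13), against 2.75% and 2.02%. With Stat5a/b siRNA 22 rose and 2 fell in DU145 (median 0.23), against 11.8% and 12.5% of all genes, and 0 rose and 6 fell in CWR22Rv1 (median -0.10), against 3.16% and 3.3%. The difference of the Stat5a/b siRNA change between the lines was called for 23 of them, all smaller in CWR22Rv1, against 6.75% of all genes larger and 5.17% smaller.

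CDC6, which loads the replicative helicase, rose with Stat3 siRNA by 0.66 ± 0.058 in DU145 and 0.46 ± 0.058 in CWR22Rv1 and with Stat5a/b siRNA by 0.54 ± 0.058 in DU145, and gave -0.19 ± 0.058 (adjusted p = 0.0715) with Stat5a/b siRNA in CWR22Rv1. CCNE2, cyclin E2, rose by 1.26 ± 0.125 with Stat5a/b siRNA in DU145 and gave -0.01 ± 0.125 in CWR22Rv1. Among the genes that fell with Stat5a/b siRNA in CWR22Rv1 were TYMS, thymidylate synthase (-0.25 ± 0.048), MCM6, a helicase subunit (-0.22 ± 0.048), and POLA1, a catalytic subunit of DNA polymerase alpha (-0.32 ± 0.075).

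On scramble arrays the lists differed between the lines. Of the replication genes 24 were higher and 12 lower in CWR22Rv1 than in DU145 (median difference 0.29), whereas of the 39 mitotic genes 5 were higher and 29 lower (median -0.44). Of all genes 30% were higher and 27% lower. The levels of the lists were measured on the same arrays, and no test of the lists against each other was run.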
